A study of Mus musculus with 66 samples.

Results

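The matrix metalloproteinases and their tissue inhibitors were followed through the regeneration of mouse gastrocnemius, a calf muscle, after an injection of cardiotoxin. The 10 genes are 7 proteases (Mmp2, Mmp3, Mmp8, Mmp9, Mmp12, Mmp13 and Mmp14) and 3 inhibitors (Timp1, Timp2 and Timp3), among 8251 genes with a probe set annotated to them alone on the later version of the array (Av2 in the labels). They have 16 such probe sets, each a set of short oligonucleotides for 1 transcript, and every gene was represented by the probe set with the highest mean intensity over the 54 Av2 arrays. Muscle was taken 12 h, 1, 2, 3, 3.5, 4, 4.5, 5, 5.5, 6, 6.5, 7, 7.5, 8, 8.5, 9, 9.5, 10, 11, 12, 13, 14, 16, 20, 30 and 40 d after injection, or from untreated controls aged 8 weeks, with 2 arrays in each of these 27 groups. A further 12 arrays of an earlier version (A) hold 12 h, 1, 2, 4 and 10 d and untreated controls, again 2 each, and a dose is labelled only for the 10 injected samples on A (100 ul of cardiotoxin at 10 uM). Cardiotoxin, from snake venom, destroys muscle fibres while sparing satellite cells, the stem cells from which new fibres form. The sources used here do not give genotype, sex, the number of animals or the age of injected mice. Both arrays of 9 groups (1, 4, 4.5, 5, 5.5, 11, 12, 13 and 14 d) carry the same number in their sample code, with opposite sides (L and R). The labels do not say whether these are 2 legs of 1 animal.

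Matrix metalloproteinases are zinc enzymes that cut collagens, elastin, other matrix proteins, cytokines and each other's inactive precursors. Each Timp protein binds the active site of many of these enzymes and blocks it, and Timp2 also takes part in the activation of Mmp2 by Mmp14 at the cell surface. In injured muscle such enzymes are made by invading white cells, by fibroblasts and by muscle cells themselves.

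Intensities are given as deposited, on a linear scale. Changes are on the log2 scale, where 1 stands for a doubling, after values under a floor of 64.7 were raised to it. The floor is the median, over arrays, of the 20th percentile of each array's values, and between 76.4% and 83.4% of the probe sets on an array lay above it. Arrays were grouped into 6 windows, 12 h to 2 d (6 arrays), 3 to 4.5 d (8), 5 to 7.5 d (12), 8 to 10 d (10), 11 to 16 d (10) and 20 to 40 d (6). Each change carries its standard error (SE) and an adjusted p from limma with the Benjamini-Hochberg adjustment over all 11997 probe sets tested, and a gene is called higher or lower where that p is under 0.05. All 6 windows share the same 2 control arrays, so their changes are not independent of each other. In whole muscle, fewer cells of a type and less RNA per cell cannot be told apart. The ratio of the 3' to the 5' control probe set of b-actin was 0.0184 to 0.0782 on 7 arrays (12 h replicate 2 and all those of 1, 2 and 4 d). On the other 47 it was 0.233 to 1.38. The same ratio of Gapdh was 0.0439 to 0.0998 on 8 arrays, all from 9.5 d on (9.5 d replicate 2, 11 d replicate 1, 12 d replicate 2, 14 d replicate 2, 16 d replicate 1, both of 30 d and 40 d replicate 1), and 0.162 to 0.97 on the other 46. No array was low in both ratios. The part of either in the results was not tested. Values without these arrays are given where a call of the 10 genes by window, between neighbouring windows or between 2 genes changes. Calls at single times were not followed without these arrays, and no such values were taken for the genes of other lists.

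4 of the proteases lie together. Mmp13, Mmp12, Mmp3 and Mmp8 belong to a run of 10 Mmp genes on chromosome 9, from 7272514 to 7699585 in GRCm38.p6, while Mmp9 is on chromosome 2, Mmp2 on 8, Mmp14 on 14, Timp1 on X, Timp2 on 11 and Timp3 on 10. The last 100 bases before the start of each of the 4 neighbours are shown because these genes had different courses, with both starts that are listed for Mmp12. They are RefSeq sequences of that build on the plus strand, with the motif TGAGTCA or its reverse complement TGACTCA, known as an AP-1 site, in capitals.
Mmp13, chr9:7272414-7272513: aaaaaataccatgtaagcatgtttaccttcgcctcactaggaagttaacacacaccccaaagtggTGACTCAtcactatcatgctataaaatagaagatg
Mmp12, first start, chr9:7344297-7344396: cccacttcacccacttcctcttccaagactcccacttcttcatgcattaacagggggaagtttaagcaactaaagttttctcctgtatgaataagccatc
Mmp12, second start, chr9:7347274-7347373: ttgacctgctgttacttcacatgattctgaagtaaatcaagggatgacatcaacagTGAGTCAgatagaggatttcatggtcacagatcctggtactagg
Mmp3, chr9:7445722-7445821: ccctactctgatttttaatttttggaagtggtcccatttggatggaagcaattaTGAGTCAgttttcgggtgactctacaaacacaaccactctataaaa
Mmp8, chr9:7558329-7558428: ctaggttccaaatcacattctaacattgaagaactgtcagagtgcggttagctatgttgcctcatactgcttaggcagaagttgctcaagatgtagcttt

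The motif begins 35 bases before the start of Mmp13, 46 before that of Mmp3 and 44 before the second start of Mmp12, and these letters are not in the windows of Mmp8 or the first start of Mmp12. Over windows of 300 bases, 250 before the start and 50 after, 1709 of 32851 promoters (5.2%) hold the motif on either strand. Of the 10 genes, 8 matched the table of promoters and Mmp2 and Mmp9 did not. The windows of Mmp14, Timp1, Timp2 and Timp3 hold no match either. A match describes the sequence only.

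Of the 10 genes, 9 changed at some time after injection (limma F test over 26 times), as did 48.7% of all probe sets tested, and Mmp2 did not (adjusted p = 0.70). The proteases of the first day (Mmp8, Mmp9 and Mmp3) were followed by Mmp12, Mmp13 and Mmp14 through the second week, while Timp1 rose with the first set and Timp3 fell for over a week. Over the 26 times, 154 of 260 combinations of gene and time were called higher than controls and 16 lower, against 13.3% and 9.96% of all probe sets over the same times. The heat map of each gene's mean as a percent of its own highest shows these courses side by side.

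**Figure D1:**
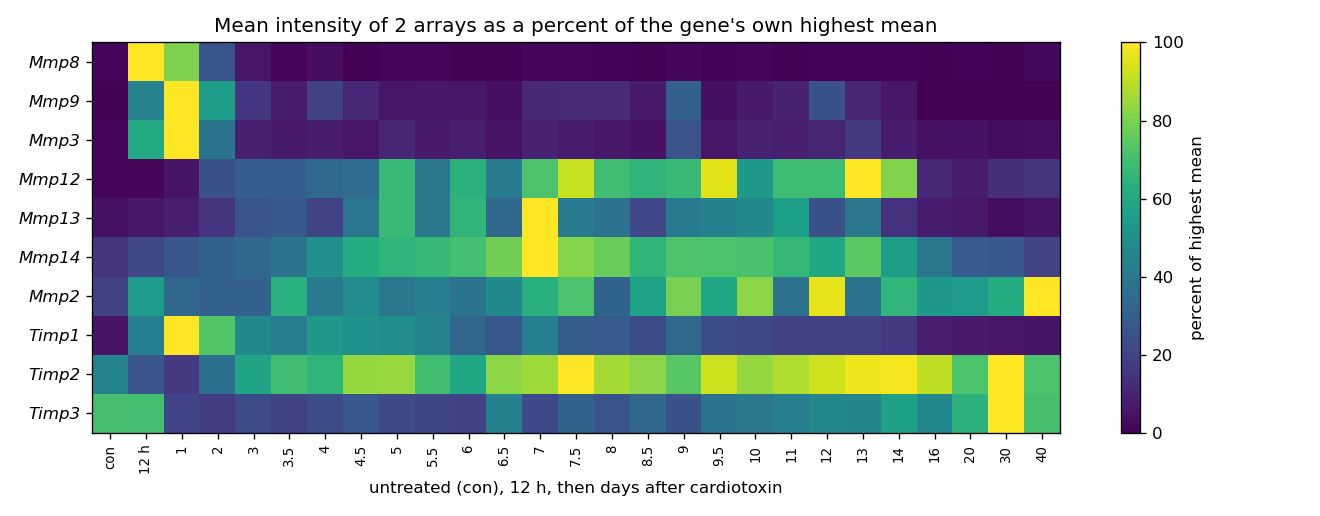
Mean intensity of 2 arrays at each time (columns, untreated controls first, then 12 h to 40 d) as a percent of the highest mean of the same gene (rows), so that no gene's level is set against another's. Mmp8 and Mmp9 are brightest at 12 h and 1 d, Mmp12, Mmp13 and Mmp14 between 5 d and 14 d, and Timp3 is at 50% or more in controls, at 12 h, at 14 d and from 20 d on.

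Mmp8, the collagenase stored in neutrophil granules, was highest at the first time measured. Its 2 arrays read 3277 and 5215 at 12 h, 5046 and 1815 at 1 d, 1591 and 628 at 2 d, 242 and 288 at 3 d, 75.8 and 66.1 at 3.5 d, and 53.5 and 237 at 4 d, against 47.9 and 52.7 in controls, both under the floor. All 8 arrays from 12 h to 3 d lay above both controls. Both arrays of 3.5 d were just above the floor, those of 4 d lay on either side of it, and from 4.5 d on only 6 of 40 arrays were above the floor, the highest at 102 (40 d). The window of 12 h to 2 d was at least 35.9-fold above controls (log2 change 5.17, SE 0.31, adjusted p = 6.7e-14). By 3 to 4.5 d the level was 21.0-fold below that of 12 h to 2 d (-4.39, SE 0.21, adjusted p = 1.7e-16), with no overlap between the windows. The call against controls at 3 to 4.5 d (0.77, SE 0.30, adjusted p = 0.042) ended in 7 of 10 fits with 1 array left out and without 3 d (0.35, adjusted p = 0.43). Within the first window, 1 and 2 d lay below 12 h (-1.25, SE 0.33, adjusted p = 0.0069), a call that ended without 12 h replicate 2 or 2 d replicate 2, and the range with 1 array left out was -1.62 to -0.88.

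Mmp9, gelatinase B, an enzyme of neutrophils, macrophages and other cells, had the largest change of the 10 genes at 12 h to 2 d. It read 2241 and 6483 at 12 h, 11746 and 7861 at 1 d, and 6857 and 4047 at 2 d, against 49.3 and 66.4 in controls. The lowest of these 6 arrays lay well above both controls, and the window was 88.2-fold higher (6.46, SE 0.79, adjusted p = 7.7e-08). At 1 d the mean of 9803 ± 2746 (SD, n = 2) was the highest of all times in every fit with 1 array left out. With the control that was under the floor raised to it, this was 147-fold above controls (7.20, SE 0.97, adjusted p = 5.1e-07). Mmp9 stayed above controls at 19 of 26 times, the last at 13 d, and was 10.7-fold higher at 5 to 7.5 d (3.41, SE 0.74, adjusted p = 0.00039). From 16 d on no difference was detected, with arrays between 34.1 and 82.7, and 20 to 40 d lay 6.57-fold below 11 to 16 d (-2.72, SE 0.50, adjusted p = 0.00014).

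Single arrays carried part of the later Mmp9 signal. At 9 d the 2 arrays read 4154 and 1842, with 1040.4 and 351 at 8.5 d before them and 335 and 431 at 9.5 d after them, and at 12 d they read 382 and 4570.3. The 14 d arrays were also far apart, at 61.1 and 1239. The call at 11 to 16 d (2.78, SE 0.75, adjusted p = 0.0059) ended with either control left out (highest adjusted p = 0.071) and held without 12 d (2.39, adjusted p = 0.022). The high arrays of 12 d and 14 d were among those with a low Gapdh 3' signal, and without the 8 arrays the change was 2.18 (adjusted p = 0.0066).

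Mmp3, stromelysin-1, which cuts many matrix proteins and activates other Mmp precursors, also peaked on the first day. Its arrays read 1017 and 7376 at 12 h, 9374 and 4326 at 1 d, and 2760 and 2488 at 2 d, against 82.2 and 79.8 in controls. All 6 lay above both controls, but the 2 arrays of 12 h differed by more than those of any other time, and 12 h was the highest mean when its replicate 1 was left out. The window was 44.1-fold higher (5.46, SE 0.51, adjusted p = 6.1e-10) and 3 to 4.5 d fell 7.30-fold below it (-2.87, SE 0.34, adjusted p = 6.4e-08). Without the arrays low in b-actin 3' signal, which leaves 1 array of the first window, that fall was -1.09 and was not called. A lower plateau followed, in which Mmp3 was between 6.05-fold and 7.32-fold above controls in the 4 windows from 3 to 16 d and was called at every time up to 14 d. At 20 to 40 d Mmp3 was still called (1.73, SE 0.51, adjusted p = 0.037), and this call ended in 6 of 8 fits with 1 array left out and without the arrays low in Gapdh 3' signal (1.62, adjusted p = 0.19).

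The arrays of 9 d stood above their neighbours for both genes. Mmp3 read 2975 and 528 at 9 d, with 356 and 305 at 8.5 d before it and 454 and 402 at 9.5 d after it. In a comparison of 9 d with 8.5 and 9.5 d that was chosen after seeing the data, none of the 10 genes was called by limma (2.44% of all probe sets were), and 3 had an unadjusted p under 0.05. These were Mmp3 (1.74, SE 0.55, adjusted p = 0.087), Mmp9 (2.53, SE 0.84, adjusted p = 0.11) and Timp1 (0.58, SE 0.22, adjusted p = 0.18). Without the arrays low in Gapdh 3' signal, which leaves 1 of 2 arrays of 9.5 d, 1 gene was called. Without 9 d, the window of 8 to 10 d kept its 8 calls, with Mmp3 at 2.49 and Mmp9 at 3.23, against 2.78 and 3.67 with it.

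**Figure D2:**
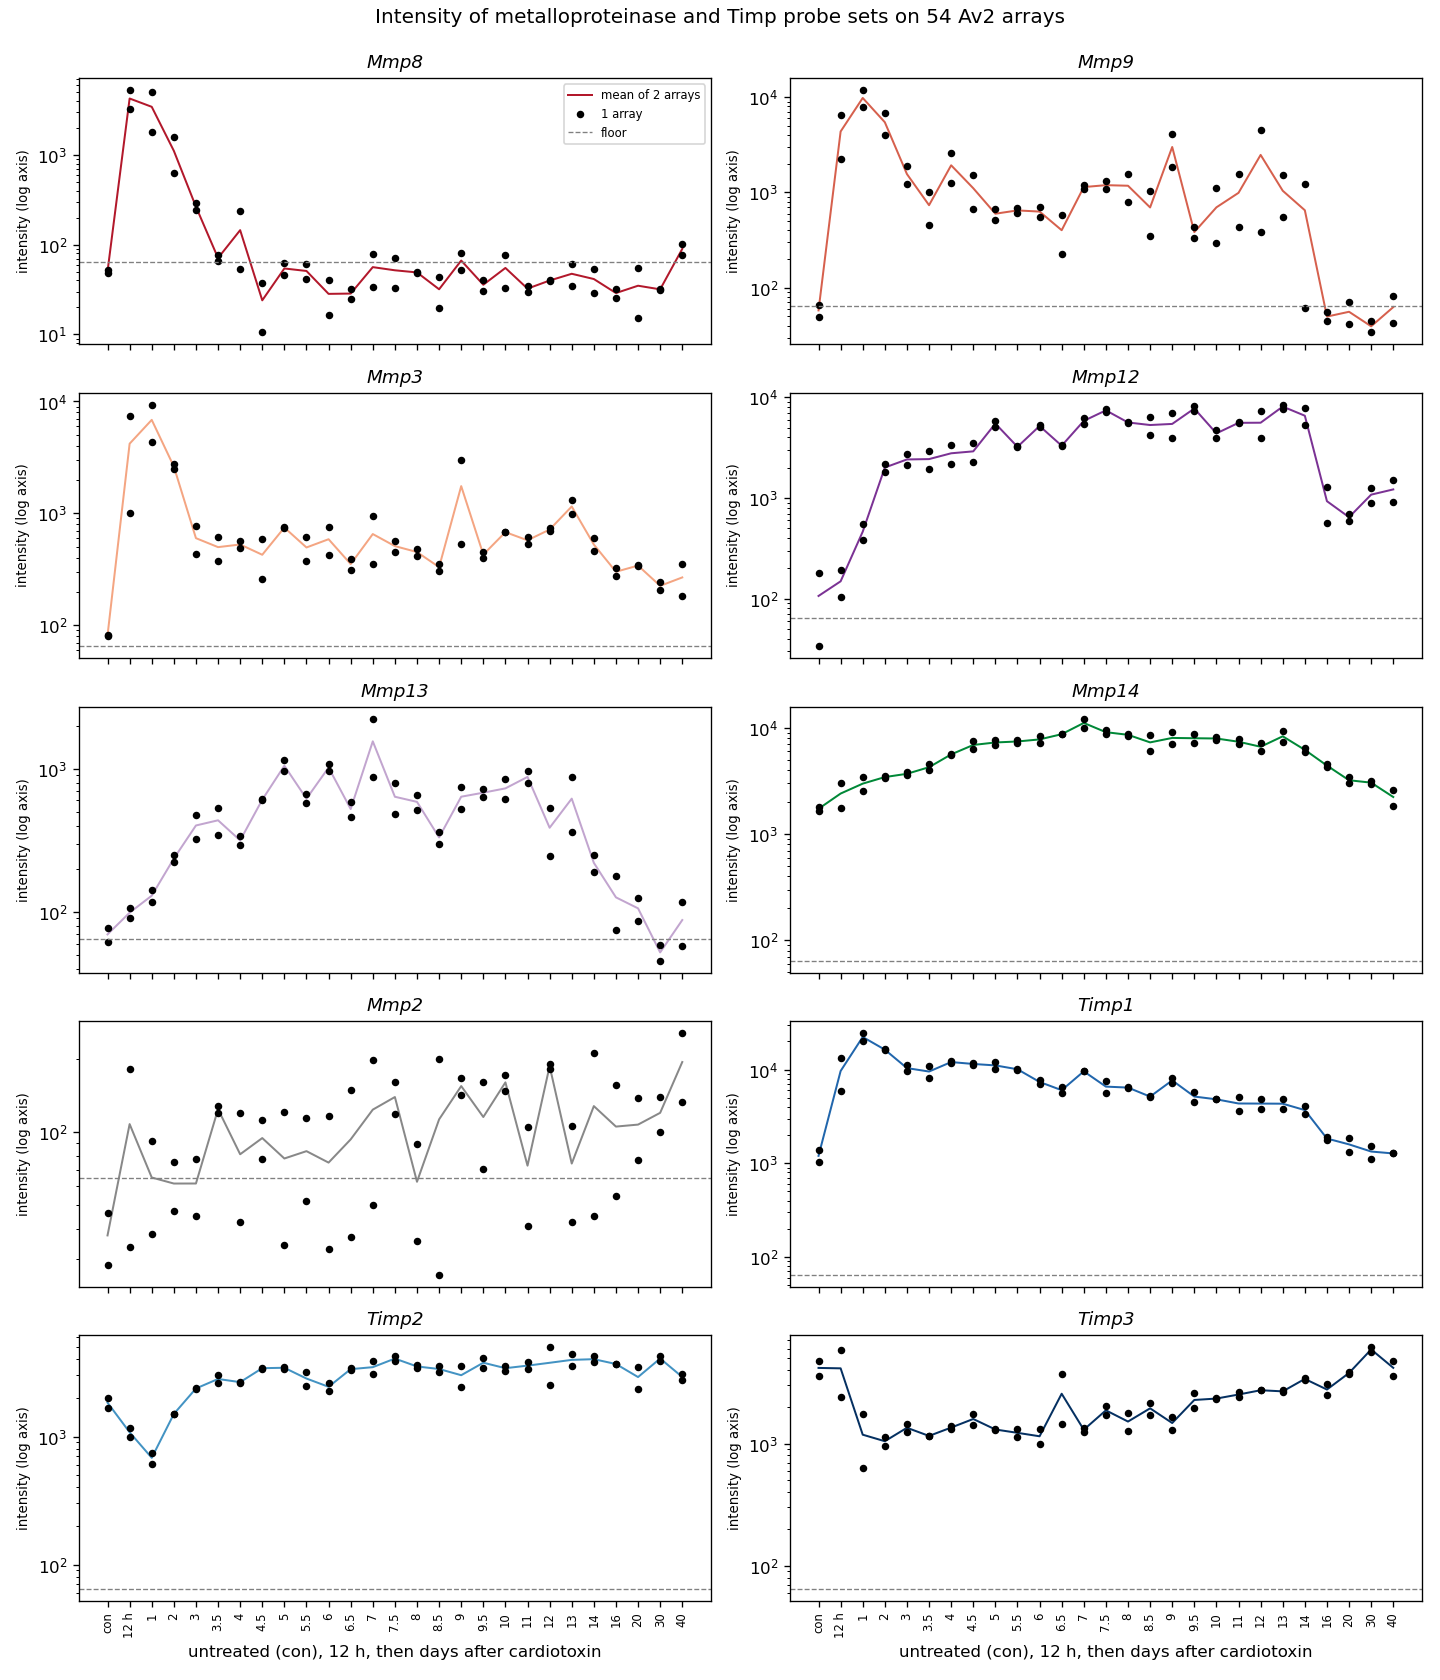
Intensity (log axis) of each gene on every Av2 array (points) and the mean of the 2 arrays (line), from untreated controls (con) through 12 h to 40 d, with the floor of 64.7 dashed. After injection Mmp8 first has both arrays under the floor at 4.5 d and Mmp9 at 16 d, Mmp12 keeps all arrays above the controls from 1 d on, and the Mmp2 points scatter around the floor.

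Mmp12, the elastase of macrophages, was called higher at more times than any other of the 10 genes. It read 104 and 193 at 12 h, 380 and 545 at 1 d, 1825 and 2185 at 2 d, 5111 and 5852 at 5 d, 8452 and 7722 at 13 d, and 909 and 1520 at 40 d, against 179 and 33.5 in controls. The 12 h arrays overlapped the controls, and every array from 1 d on lay above both of them. The difference between 1 and 2 d and 12 h was 6.73-fold (2.75, SE 0.35, adjusted p = 1.1e-06). These calls were at 25 of 26 times, from 1 d to 40 d, and the level was 51.3-fold higher at 8 to 10 d (5.68, SE 0.31, adjusted p = 2.2e-14).

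The mean of Mmp12 was at 50% or more of its highest at 13 times between 5 d and 14 d. At 16 d the arrays read 564 and 1292, against 5292 and 7826 at 14 d, with no overlap. At 20 to 40 d Mmp12 lay 4.53-fold below 11 to 16 d (-2.18, SE 0.21, adjusted p = 3.7e-09) and was still 8.64-fold above controls (3.11, SE 0.33, adjusted p = 3.4e-07). Because the 2 controls differ and 1 is under the floor, leaving either out moved this last change to 2.38 or 3.84, that of 8 to 10 d to 4.95 or 6.41 and that of 12 h to 2 d (2.23, SE 0.33) to 1.5 or 2.96. Relative to 30 and 40 d in place of the controls, Mmp12 was lower at 12 h to 2 d (-1.15, adjusted p = 0.00054).

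Mmp13, collagenase-3, which cuts fibrillar collagens, rose gradually. It read 223 and 248 at 2 d, 478 and 325 at 3 d, 1141 and 957 at 5 d, 2232 and 875 at 7 d, 191 and 249 at 14 d, and 45.7 and 58.5 at 30 d, against 77.7 and 61.5 in controls. The level at 7 d rests on 1 array, and 5 d was the highest mean without it. Mmp13 was called higher at 20 times, from 2 d to 14 d, and was 11.5-fold higher at 5 to 7.5 d (3.52, SE 0.32, adjusted p = 2.3e-10). The early change (1.02, SE 0.34, adjusted p = 0.017 for 12 h to 2 d) was not called with a floor of 2 times the one used (0.31, adjusted p = 0.45) or with either control left out (highest adjusted p = 0.16). No difference from controls was detected at 20 to 40 d (0.24, SE 0.34, adjusted p = 0.80).

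Mmp14, the membrane-bound protease that cuts collagen at the cell surface, was already well above the floor in untreated muscle. Its arrays read 1767 and 3052 at 12 h, 3578 and 3812 at 3 d, 6894 and 7676 at 5 d, 12171 and 10077 at 7 d, 6491 and 5923 at 14 d, and 2625 and 1846 at 40 d, against 1809 and 1653 in controls. Every array from 1 d on lay above both controls, and no other array reached the 2 of 7 d. Mmp14 was called higher at 24 times, from 1 d to 30 d, and was 4.90-fold higher at 5 to 7.5 d (2.29, SE 0.16, adjusted p = 7.1e-13). At 20 to 40 d it was 1.61-fold higher (0.69, SE 0.17, adjusted p = 0.0086), a call that ended with either control left out (highest adjusted p = 0.14) and without the arrays low in Gapdh 3' signal (0.49, adjusted p = 0.18). Relative to 30 and 40 d, Mmp14 was not called at 12 h to 2 d (0.15, adjusted p = 0.42).

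Mmp2, gelatinase A, whose precursor Mmp14 activates, was close to the floor throughout. Its arrays ranged from 33.4 to 182 at 12 h to 2 d, with a median of 61.3, from 25.8 to 200 at 8 to 10 d, with a median of 145, and from 76.7 to 256 at 20 to 40 d, with a median of 135, against 46.5 and 28.4 in controls. Both controls were under the floor and 36 of the 54 arrays were above it, so the windows overlapped the controls except 20 to 40 d. The changes lay between 0.37 (SE 0.50) at 12 h to 2 d and 1.02 (SE 0.50, adjusted p = 0.26) at 20 to 40 d, and none was called. The other Mmp2 probe set had a mean intensity of 67.0 and a correlation of 0.26 with this one over the 27 group means, so the array gives little information on Mmp2.

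Among the inhibitors, Timp1, which blocks many of these proteases and is induced in wounds, rose with the early set. It read 5900.3 and 13411 at 12 h, 24600.2 and 19944 at 1 d, 16598 and 16029.7 at 2 d, 10110.0 and 12038 at 5 d, 4827 and 4799 at 10 d, and 1271 and 1274 at 40 d, against 1023 and 1377 in controls. All arrays from 12 h to 16 d lay above both controls, and the 2 arrays of 1 d were above those of any other time. The window of 12 h to 2 d was 12.4-fold higher (3.64, SE 0.21, adjusted p = 1.4e-14), and 1 and 2 d lay 2.14-fold above 12 h (1.10, SE 0.22, adjusted p = 0.00043). Without 12 h replicate 1 this last difference was 0.50 (adjusted p = 0.18), and without 1 of the other arrays it reached 1.69. Timp1 then fell at each of 5 steps between neighbouring windows, by 0.46, 0.39, 0.52, 0.71 and 1.35 on the log2 scale. Each fall was called with all arrays. Without the arrays low in b-actin 3' signal the first step was a rise of 0.81, with only 12 h replicate 1 left in the first window. The first of these falls ended without 12 h replicate 2 (adjusted p = 0.11) and the second without 3.5 d replicate 1 (adjusted p = 0.056) and with the mean of both Timp1 probe sets (-0.17, adjusted p = 0.069). The other Timp1 probe set was above the floor on only 7 of 54 arrays, so that mean shrinks the change by construction. At 20 to 40 d no difference from controls was detected (0.22, SE 0.21, adjusted p = 0.65).

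Timp2 fell first and rose later. It read 989 and 1169 at 12 h, 750 and 614 at 1 d, 1502 and 1496 at 2 d, 2394 and 2348 at 3 d, 3898 and 4218 at 7.5 d, and 3862 and 4266 at 30 d, against 1663 and 2014 in controls. The 6 arrays of 12 h to 2 d lay below both controls (-0.83, SE 0.18, adjusted p = 0.00034), and every array from 3 d on lay above both. From 12 h to 2 d the level was 1.78-fold lower, and at 11 to 16 d it was 2.05-fold higher (1.03, SE 0.17, adjusted p = 2.0e-05). Timp2 was still higher at 20 to 40 d (0.82, SE 0.18, adjusted p = 0.0032), although that call ended without the arrays low in Gapdh 3' signal, both of 30 d among them (0.62, adjusted p = 0.055), and without control replicate 1 (adjusted p = 0.11), as did that of 3 to 4.5 d (0.61, SE 0.17). Timp2 has 2 dimmer probe sets, whose correlations with this one over the group means were 0.29 and 0.18. They were above the floor on only 16 and 9 of 54 arrays, so an average with them shrinks the change by construction. In that average Timp2 was not called at 12 h to 2 d (-0.28, adjusted p = 0.19), 3 to 4.5 d (0.29, adjusted p = 0.14) or 20 to 40 d (0.39, adjusted p = 0.15). Relative to 30 and 40 d in place of the controls, Timp2 was not called in any window from 3 to 16 d (-0.30, -0.096, -0.021 and 0.12).

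Timp3, which is bound to the matrix and also blocks Adam17 and other ADAM proteases, was lower for over a week. Its arrays read 5843 and 2426 at 12 h, 635 and 1732 at 1 d, 959 and 1133 at 2 d, 1290 and 1321 at 5 d, 2350 and 2327 at 10 d, and 5629 and 6173 at 30 d, against 3586 and 4748 in controls. At 12 h the 2 arrays lay on either side of the controls, and from 1 d to 16 d only 6.5 d replicate 1 (3684) reached them. Timp3 was called lower at 14 times between 1 d and 9 d, with 3.06-fold at 3 to 4.5 d (-1.61, SE 0.28, adjusted p = 2.0e-05). At 1 and 2 d it was 3.60-fold below 12 h (-1.85, SE 0.31, adjusted p = 4.9e-05), and leaving out 1 array moved this between -2.48 and -1.21. The call at 8 to 10 d (-1.15, SE 0.28, adjusted p = 0.0015) ended without control replicate 2 (adjusted p = 0.076). Timp3 rose again at 20 to 40 d relative to 11 to 16 d (0.69, SE 0.18, adjusted p = 0.0067), with no overlap between the windows. Its highest arrays, those of 30 d, had a low Gapdh 3' signal, and without such arrays the rise was not called (0.43, adjusted p = 0.39).

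**Figure D3:**
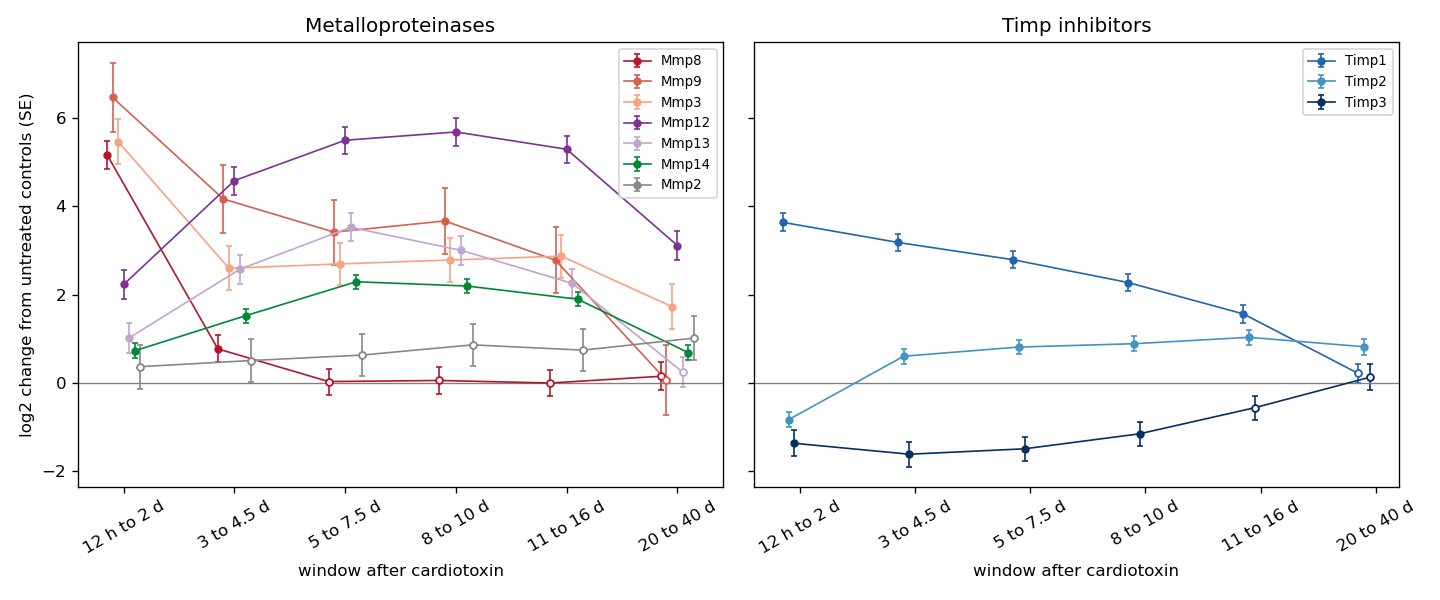
Log2 change from untreated controls in each window, with SE bars, for the proteases (left panel) and the Timp genes (right panel). Filled points were called and open points were not. Mmp8 drops to 0 after 3 to 4.5 d while Mmp12 stays above 4.5 until 16 d, and Timp3 is the only gene below 0 in every window up to 16 d.

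By window, 7 of the 10 genes were called higher and 2 lower at 12 h to 2 d, where 17.7% of all probe sets were higher and 18.5% lower. At 3 to 4.5 d the counts were 8 and 1, beside 22.2% and 18.5% of all probe sets. At 5 to 7.5 d they were 7 and 1, beside 19% and 16.1%, and at 8 to 10 d again 7 and 1, beside 16.9% and 13.8%. In the window of 11 to 16 d 7 genes were higher and none lower, beside 13.9% and 10.2%, and at 20 to 40 d 4 were higher and none lower, beside 5.01% and 2.12%. The median change of the 10 genes was between 1.63 and 2.49 in the first 5 windows and 0.46 in the last, while that of all probe sets was between 0 and 0.03. Leaving out control replicate 1 or 2 reduced the 4 calls of 20 to 40 d to 1 or 2, and leaving out the arrays low in Gapdh 3' signal to 1 (Mmp12, 3.20).

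Of the 6 arrays at 12 h to 2 d, 5 had the low b-actin 3' signal, at 0.0333 to 0.0782 of the 5' probe set, against 0.725 and 1.06 on the controls. On the remaining array, 12 h replicate 1, which is assumed here to vary like the other groups, 4 of the 10 genes were called higher and 1 lower instead of 7 and 2, beside 5.96% and 5.2% of all probe sets. These were Mmp8 (5.66), Mmp9 (5.10, against 6.46 with all 6 arrays), Mmp3 (3.65, against 5.46), Timp1 (2.31, against 3.64) and Timp2 (-0.89). Mmp12 (-0.05), Mmp13 (0.35), Mmp14 (0.03) and Timp3 (0.50) were not called there. All arrays of 1 and 2 d had the low signal, so time and signal cannot be told apart for them. The 2 arrays of 12 h share the time and differ in the signal, with only 1 array on each side. The part of the low signal in these changes was not tested.

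Between neighbouring windows, 4 genes rose (Mmp12, Mmp13, Mmp14 and Timp2) and 4 fell (Mmp3, Mmp8, Mmp9 and Timp1) at 3 to 4.5 d relative to 12 h to 2 d, beside 16.9% and 10.7% of all probe sets. Without the arrays low in b-actin 3' signal, 12 h replicate 1 is the only array of the first window, and 3 to 4.5 d loses both arrays of 4 d. Mmp8 still fell in that fit. The change was -1.09 for Mmp3 (-2.87 with all arrays) and -1.14 for Mmp9 (-2.30), and neither fall was called there. For Timp1 it was 0.81 (-0.46 with all arrays), a change of sign. At 5 to 7.5 d 3 genes rose further (Mmp12, Mmp13 and Mmp14) and Mmp8 and Timp1 fell, beside 9.16% and 12%. The windows of 8 to 10 d and 5 to 7.5 d differed for Timp1 alone, which was lower, beside 1.03% higher and 1.42% lower over all probe sets. At 11 to 16 d Timp3 was higher than at 8 to 10 d, and Mmp13, Mmp14 and Timp1 were lower, beside 3.17% and 3.36%. The Mmp14 fall among these (-0.30, SE 0.09, adjusted p = 0.044) ended in 15 of 20 fits with 1 array left out, and the Timp3 rise (0.59, SE 0.16, adjusted p = 0.021) in 4 of 20. Neither was called without the arrays low in Gapdh 3' signal (adjusted p = 0.16 and 0.17). The count of 4 became 2 without 8 d replicate 2, 8.5 d replicate 2, 9.5 d replicate 1 or 16 d replicate 1. In the last step, to 20 to 40 d, Timp3 rose and 6 genes fell (Mmp3, Mmp9, Mmp12, Mmp13, Mmp14 and Timp1), beside 8.19% and 11.3%. The Mmp3 fall (-1.14, SE 0.33, adjusted p = 0.011) ended without 40 d replicate 2 (adjusted p = 0.060) and without the arrays low in Gapdh 3' signal (-1.22, adjusted p = 0.14). Inside the first window, 2 genes were higher at 1 and 2 d than at 12 h (Mmp12 and Timp1) and 2 were lower (Mmp8 and Timp3), beside 11.6% and 8.19%.

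Whether the courses of 2 genes differed was tested by subtracting the second gene's log2 value on every array, for 10 pairs of genes and windows. In such a fit every probe set carries the second gene's change, so the share of all probe sets called is given beside each pair. At 5 to 7.5 d relative to 12 h to 2 d, Mmp9 changed by -3.05 and Mmp12 by 3.26, a difference of -6.31 (SE 0.40, adjusted p = 2.1e-18, with 99.7% of probe sets called relative to Mmp12). Over the same windows Mmp8 differed from Mmp13 by -7.63 (SE 0.28, adjusted p = 5.4e-27, 99.1% relative to Mmp13), and Mmp12 from Timp1 by 4.11 (SE 0.22, adjusted p = 6.1e-17, 86.1%). Mmp3 differed from Mmp2 by -3.17 (SE 0.39, adjusted p = 5.9e-14, 12.7%) at 8 to 10 d relative to 12 h to 2 d, and this was not called without the arrays low in b-actin (-1.73, adjusted p = 0.26).

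Against controls at 12 h to 2 d, the rise of Mmp9 exceeded that of Timp1 by 2.83 (SE 0.69, adjusted p = 0.00026, 98.8% relative to Timp1). Timp1 differed from Timp2 by 4.47 (SE 0.25, adjusted p = 1.3e-15, 60.7%) and from Timp3 by 5.0 (SE 0.43, adjusted p = 2.5e-11, 74.6%). The last 2 were 3.20 and 1.81 on 12 h replicate 1 alone. At 5 to 7.5 d Mmp14 exceeded Mmp2 by 1.66 (SE 0.57, adjusted p = 0.037, 11.6%), a call that ended in 5 of 14 fits with 1 array left out, with 0.5 times the floor (adjusted p = 0.32) and after median scaling (1.51, adjusted p = 0.052). Both controls of Mmp2 (46.5 and 28.4) were under the floor, so the difference depends on it. No difference was detected between Mmp2 and Timp2 at 8 to 10 d (-0.03, SE 0.52, adjusted p = 0.97, 67.3%) or between Mmp12 and Mmp2 at 5 to 7.5 d relative to 11 to 16 d (0.32, SE 0.32, adjusted p = 0.98, 1.54%). Both involve Mmp2 near the floor.

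Markers of several cell types were followed over the same days. The neutrophil list holds 11 genes on the array. At 12 h to 2 d 6 were higher and none lower, beside 17.7% and 18.5% of all probe sets. These 6 were S100a8, S100a9, Ngp, Cxcr2, Ly6g and Prtn3, while Elane, Mpo, Ltf, Camp and Csf3r were not called. The summed intensity of the 11 was between 23634 and 71437 at 12 h to 2 d and between 4534 and 7344 at 3 to 4.5 d. In controls it was 3255 and 3754, with S100a9 and Ly6g under the floor. On the 9 d arrays, which stood out for Mmp3 and Mmp9, the sum was 33727 and 13458, on those of 12 d 7963 and 6003, and on those of 13 d 18378 and 11228. Mmp8 at 9 d read 80.6 and 52.4.

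All 12 macrophage genes were called higher in each window from 12 h to 10 d, beside 16.9% to 22.2% of all probe sets. At 11 to 16 d 11 were higher (13.9% of all probe sets) and at 20 to 40 d 8 (5.01%). The sum of the 12 was between 34159 and 117374 at 12 h to 2 d and between 70635 and 112692 at 3 to 4.5 d. It was between 19972 and 63191 at 11 to 16 d and between 13249 and 20278 at 20 to 40 d, against 7963 and 12613 in controls. The highest macrophage sum was on 2 d replicate 1, while Mmp12 was highest at 13 d, where the sums were 56368 and 56034. The 9 d arrays had 89979 and 62992. At 16 d, where Mmp12 was low, they were 19972 and 23083. None of the 12 was under the floor on every array of a window.

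Of 11 fibroblast genes, 1 was higher and 3 lower at 12 h to 2 d, beside 17.7% and 18.5% of all probe sets. At 5 to 7.5 d 8 were higher and 1 lower, beside 19% and 16.1%. The sum of the 11 was between 104049 and 181884 there, against 64606 and 88901 in controls. Of 8 endothelial genes 1 was higher and 1 lower at 12 h to 2 d, and of 6 mast cell genes 1 and 2. Beside the same 17.7% and 18.5%, such small counts are not read as a result about either list. Mature fibre markers, which check the tissue label, summed to between 88379 and 178400 at 12 h to 2 d, against 184683 and 239851 in controls, with Myh2 under the floor on both controls. The part of cell numbers in the courses of the proteases was not tested.

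**Figure D4:**
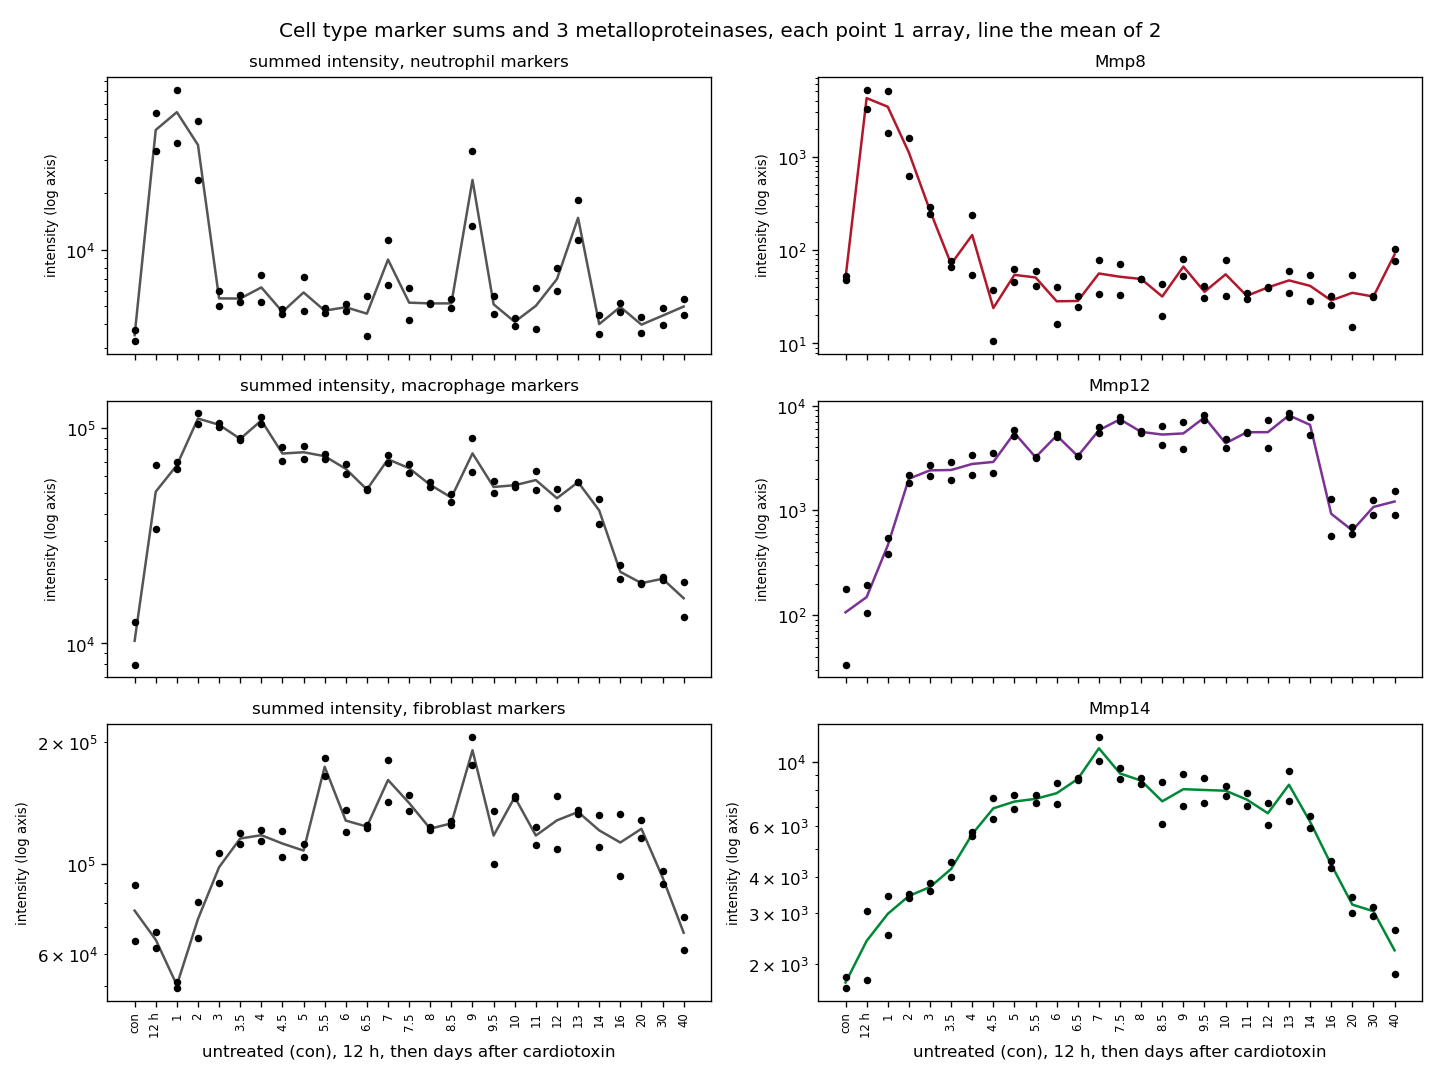
Summed intensity of neutrophil, macrophage and fibroblast markers (left panels, log axes) beside Mmp8, Mmp12 and Mmp14 (right panels, log axes) on every array, from untreated controls (con) to 40 d, with lines through the mean of 2 arrays. The neutrophil sum is highest on the arrays of 12 h to 2 d and on 9 d replicate 1 (33727), where Mmp8 read 80.6, and the highest macrophage sum is at 2 d while Mmp12 is highest at 13 d.

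Genes with the most similar course were taken by Pearson correlation over the 27 group means, which share arrays, controls and scaling, so the values describe these data only. For Mmp8 they were Sema6b (0.97), Selp, the P-selectin of platelets and endothelium (0.96), and Ltb4r1, a leukotriene receptor of white cells (0.95). Those of Mmp9 were Il1rn, the antagonist of the interleukin 1 receptor (0.95), Ptpn6, a phosphatase of blood cells (0.95), and Cd52, a surface protein of white cells (0.95). For Mmp3 they were Cytip (0.92), Coro1a, an actin-binding protein of white cells (0.91), and Spata13 (0.91).

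Mmp12 was nearest to Col18a1, a basement membrane collagen (0.94), Cpxm1 (0.93) and Tpst1 (0.92). Mmp13 was nearest to Calu (0.92), Crtap, which acts in collagen prolyl hydroxylation (0.92), and Csrp2 (0.91), and Mmp14 to Plagl1 (0.95), Maged2 (0.94) and Col5a2, a fibrillar collagen chain (0.93). Among the inhibitors, Timp1 was nearest to Actr3, of the actin-nucleating complex (0.97), 1700017B05Rik (0.97) and Serp1 (0.96). Timp2 was nearest to Col15a1 (0.94), Tcf4 (0.92) and Ogn (0.92), and Timp3 to Etfdh (0.92), Zranb1 (0.92) and Sdha, a subunit of succinate dehydrogenase (0.92). For Mmp2 they were Ube2v2 (0.65), Axl (0.65) and Syt1 (0.64). Within the family, Mmp12 and Mmp14 (0.89), Mmp13 and Mmp14 (0.89), Mmp9 and Timp1 (0.89) and Mmp3 and Mmp9 (0.84) were the most alike, and Mmp8 and Timp2 (-0.90) and Timp1 and Timp3 (-0.87) the most opposed.

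Related proteases were described from lists, with all arrays. Most arrays of 12 h to 2 d had the low b-actin 3' signal, and the genes of these lists were not tested without such arrays. Of 17 other metalloproteinase and Timp genes, 6 had a probe set and 4 passed the filter on dim values (Mmp7, Mmp11, Mmp16 and Mmp17), and limma called none of them in any window, with 1 of 24 combinations under 0.05 before adjustment. Mmp11, named after its values were seen, had the largest of these changes at 5 to 7.5 d (0.76, SE 0.36, adjusted p = 0.099). Of 11 ADAM and ADAMTS genes tested, 6 were higher and 1 lower at 12 h to 2 d, beside 17.7% and 18.5% of all probe sets. Adam8, a membrane protease of white cells, averaged 13647 ± 7385 (SD, n = 2) at 12 h, against 34.6 and 36.8 in controls, both under the floor, and was at least 184-fold higher at 12 h to 2 d (7.52, SE 0.30, adjusted p = 8.3e-18). Adam12, known from regenerating muscle, was 4.39-fold higher at 5 to 7.5 d (2.13, SE 0.35, adjusted p = 1.1e-05). Adam17, which sheds membrane-bound cytokines, was called at 12 h to 2 d only (1.46, SE 0.50, adjusted p = 0.021). Adamts1 was not called in any window.

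In the plasminogen system, whose protease plasmin activates several Mmp precursors, 4 of 9 genes were higher and none lower in each of the first 5 windows. None was called at 20 to 40 d. Over all probe sets, 13.9% to 22.2% were higher and 10.2% to 18.5% lower in those 5 windows, and 5.01% and 2.12% at 20 to 40 d. Plaur, the receptor of urokinase, was at least 28.5-fold higher at 12 h to 2 d (4.83, SE 0.42, adjusted p = 1.3e-10), whereas its ligand Plau changed by 0.26 (SE 0.29, adjusted p = 0.57). Plat, tissue plasminogen activator, was called in each window from 3 to 16 d, with 2.16-fold at 3 to 4.5 d (1.11, SE 0.24, adjusted p = 0.00025). Of 14 regulators and partners, 6 were higher and 2 lower at 12 h to 2 d, beside 17.7% and 18.5% of all probe sets. Lcn2, which binds Mmp9, was 90.3-fold higher (6.5, SE 0.47, adjusted p = 2.5e-12), and Cd44, a docking site for Mmp9 and Mmp14, at least 27.4-fold (4.78, SE 0.34, adjusted p = 2.5e-12). Bsg, an inducer of metalloproteinases, was lower (-1.43, SE 0.20, adjusted p = 6.5e-07), and so was Reck, a membrane-anchored inhibitor (-0.74, SE 0.24, adjusted p = 0.013).

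The earlier version of the array measured part of the family again at 5 times. Sample codes of the controls and of 12 h recur on Av2, while those of 1, 2, 4 and 10 d have other numbers and the same sides of the body. Over 1437 genes above the floor on all arrays of both versions, the log2 difference between the 2 samples of a time correlated between versions by 0.67 at 1 d, 0.44 at 2 d, 0.27 at 4 d and 0.16 at 10 d with sides matched, and by 0.83 at 12 h and 0.41 in controls with codes matched. The A arrays are therefore not taken as independent replication at any time. The floor there was 729, and only 24.4% to 26.4% of the probe sets on an array lay above it. The calls depend on that floor, with 17 at 729, 20 at 0.5 times and 11 at 2 times this value. Of the 9 genes with a probe set, 6 passed the filter, and Mmp2, Mmp13 and Mmp14 did not. Over 30 combinations of gene and time, 14 were higher and 3 lower, beside 17.8% and 19.8% of all probe sets.

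Mmp9 read 2081 and 7760 at 12 h, 18691 and 9590 at 1 d, and 7602 and 4312 at 2 d, with both controls under the floor, and was at least 18.4-fold higher at 1 d (4.20, SE 0.71, adjusted p = 0.0030). Mmp8 was called at 12 h, at least 5.10-fold (adjusted p = 0.045), and Mmp3 at 1 d, at least 6.18-fold (adjusted p = 0.013). Mmp12 was called at 4 d and at 10 d, where it read 4032 and 3965 and was at least 5.48-fold higher (adjusted p = 0.00013). Timp1 was higher at all 5 times, by 12.4-fold at 1 d (3.64, SE 0.34, adjusted p = 0.00036). Timp2 was lower at 12 h, 1 d and 2 d and higher at 4 d and 10 d, with 1.75-fold lower at 12 h (-0.81, SE 0.13, adjusted p = 0.0053). Leaving out control replicate 1 lowered the 17 calls to 11.

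**Figure D5:**
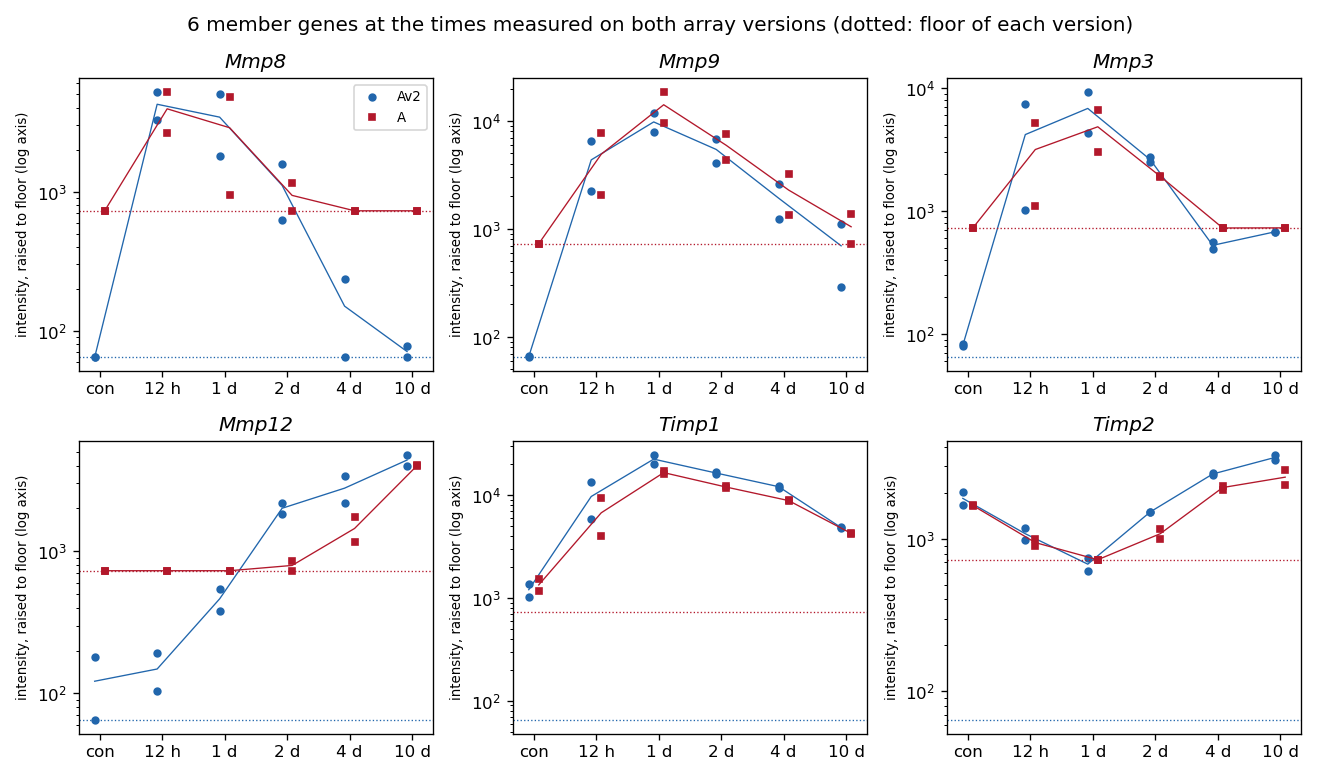
Intensity raised to the floor of its version (log axis) for the 6 genes that passed the filter on both versions, with Av2 as circles and A as squares, lines through the mean of 2 arrays and each floor dotted. Levels are not on a common scale between versions. On both, Mmp8, Mmp9, Mmp3 and Timp1 are highest at 12 h or 1 d, Mmp12 is highest at 10 d of these times, and Timp2 is lowest at 1 d.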

How the data were processed

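The authors' deposited tables hold 1 intensity per probe set and array, read here as linear intensity from the values, since unit, software and background method were not given in the sources used here. The 2% trimmed mean of every Av2 array lay between 800.41 and 800.54, so deposited intensities were used with no further scaling. Values under 64.7 (Av2) or 729 (A, 2 times the quadratic mean of its values below 0) were raised to that floor and put on the log2 scale. Probe sets above the floor on at least 2 arrays were tested, without 66 manufacturer's controls, which left 11997 of 12488 on Av2 and 4455 of 12654 on A. Symbols came from the platform annotation: 10833 Av2 probe sets had 1 symbol, 396 several and 1193 none.

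limma (version 3.58.1, R 4.3.3) was fitted across all probe sets with 1 mean per time, and p-values were adjusted over all of them. Windows are equally weighted means of their times. Nothing says that arrays came from separate animals, so p-values measure only the spread between these arrays, and 2 arrays per group limit the precision. Genes named by rule are the 10 members, 11 genes of related lists (another is not reported here) and the 3 most correlated genes of each member. Other genes of a list are named where a count is of them. The fits were tested on simulated data. The members, lists, windows and pairs were chosen with earlier results of these data known. Deviations between sample code numbers 1 and 2 were not alike from time to time. Over 153 pairs of the 18 groups that have both, the median correlation of deviations was 0.003, and 5 pairs were above 0.1. The 9 groups whose arrays share a number were not part of this check, so it cannot show whether 2 arrays of a time come from 1 animal. Alternatives were quantile and median scaling, other floors and filters, averaged probe sets of 1 gene, a variance trend, the code number as a block, other window edges, 30 and 40 d in place of the controls, each array left out and, added after seeing the data, no arrays low in Gapdh 3' signal.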

Additional observations from a re-analysis of the deposited data

How the results depend on the processing

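The 84 results followed here are the 10 pairs and those changes of the 10 genes that were called by window, between neighbouring windows or at 1 and 2 d against 12 h. Changes not called were not followed singly, so calls gained among them show only in the counts. All 84 kept direction and call under quantile normalization and with no filter on dim probe sets, 83 with the stricter filter and 83 with a variance trend. Removing the arrays low in b-actin 3' signal lowered the calls at 12 h to 2 d to 5 (9 with them) and turned the sign of Mmp12 (-0.048) and Timp3 (0.50) there and of Timp1 between 3 to 4.5 d and 12 h to 2 d (0.81). Only 12 h replicate 1 is left in the window of 12 h to 2 d, and that of 3 to 4.5 d loses both arrays of 4 d. The cause was not tested. With 30 and 40 d in place of the controls, Mmp12 at 12 h to 2 d (-1.15) and Timp2 at 3 to 4.5, 5 to 7.5 and 8 to 10 d (-0.30, -0.096 and -0.021) changed sign. Both genes were higher than controls at 20 to 40 d (3.11 and 0.82). The difference of Mmp2 from Timp2 was 0.11 after median scaling and 0.53 with 0.5 times the floor, -0.68 (adjusted p = 0.013) with 2 times the floor, and lay between -0.17 and 0.12 with 1 array left out. With all probe sets of a gene averaged, that of Mmp12 from Mmp2 was -0.043. Under that average, and with the spread taken without the times that share a code number, 1 gene was called at 9 d against its neighbours, where none was in the reported fit. Leaving out 1 array gave 0 to 1 call for 9 d, 1 to 4 for 20 to 40 d against controls, 1 to 2 for 8 to 10 d against 5 to 7.5 d, 2 to 4 for 11 to 16 d against 8 to 10 d and 11 to 19 on the earlier array, which had 17 calls as reported, 11 with 2 times the floor and 20 with 0.5 times. With the code number as a replicate block, 83 of 84 results and 16 of 16 counts were as before. The fall of Mmp14 at 11 to 16 d was -0.28 there (adjusted p = 0.065). Both arrays share a number in 9 groups, so the block cannot show whether 2 arrays of a time come from 1 animal. Removing the arrays low in Gapdh 3' signal, an alternative chosen after seeing the data, left 1 call at 20 to 40 d against controls (4 with them) and gave 1 at 9 d. Among other calls that ended under at least 1 setting were Timp2 at 11 to 16 d (0.12, adjusted p = 0.61) and Mmp14 at 12 h to 2 d (0.15, adjusted p = 0.42) with 30 and 40 d in place of the controls, Mmp3 at 20 to 40 d against controls (1.63 after median scaling, adjusted p = 0.051), Mmp8 at 5 to 7.5 d against 3 to 4.5 d (-0.37 with 2 times the floor, adjusted p = 0.053) and Mmp8 at 1 and 2 d against 12 h (-1.25 with 0.5 times the floor, adjusted p = 0.060).

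Genes near the floor (Mmp2, and Mmp8 after 4 d) have only bounds, and with 2 control arrays many calls late in the course depend on each of them.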
